A study of Rattus norvegicus with 4 samples.

Results

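The genes described here are Hmgcs1, Idi1, Sqle, Hsd17b7, Ebp, Srebf2, Insig1 and Stard4, a set of 8 genes for enzymes, regulators and a transfer protein of cholesterol synthesis. Each was looked up by its exact symbol in the platform's probe-to-gene table, and the probe set with the highest mean over the 4 arrays stood for the gene. This found 7 of the 8, among 14497 genes that carried a single symbol. Hmgcs1, the enzyme that makes HMG-CoA, was found under no probe set and is not analysed here. The arrays held RNA of primary hippocampal neurons from rat embryos, 2 cultures treated with an shRNA against Gld2 and 2 with a scrambled shRNA. Gld2, listed as Tent2, is a cytoplasmic poly(A) polymerase, and the series title gives the aim as profiling poly(A) RNA after its knockdown. The RNA of all 4 cultures had passed over poly(U) Sepharose and was eluted by heat, so the amount of a transcript and its tail-dependent recovery cannot be told apart. The labels give neither the strain, the age in days, the vector nor the shRNA sequence, and it is not stated if cultures of one treatment were prepared independently, so the spread between them may be technical.

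Cells build cholesterol from acetyl-CoA. The early steps form isoprenoid units, squalene is then made and oxidised, and after ring closure a series of enzymes trims and rearranges the first sterol to give cholesterol. The transcription factor SREBP2, encoded by Srebf2, turns on most of these genes, and it works best together with the CCAAT-binding factor NF-Y. When sterols are plentiful, INSIG proteins hold SREBP2 and its escort SCAP in the endoplasmic reticulum. When sterols run low, SREBP2 moves to the Golgi, where proteases release its active part. In the brain cholesterol is made locally, with astrocytes and oligodendrocytes as major producers.

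Promoter sequences are shown as a description of genes known to share regulators. Any link between promoter letters and the differences on these arrays was not tested. RefSeq promoters of assembly GRCr8, from 250 bases before to 50 bases after the start, were at hand for 5 of the 7 measured genes. The letters searched on both strands were CCAAT (the NF-Y core), GGGCGG (a GC box) and, for the sterol regulatory element, TCACNCCAC and CACCCCAC. These last 2 overlap wherever N is C. TCACCCCA, which overlaps both, was added after the sequences had been read. Capitals mark CCAAT on either strand and the sterol element letters. The windows were chr13:84722705-84723004, - strand for Hsd17b7, chr17:66547475-66547774, - strand for Idi1, chrX:16971212-16971511, + strand for Ebp, chr4:8057720-8058019, - strand for Insig1 and chr7:115543057-115543356, + strand for Srebf2.
Hsd17b7: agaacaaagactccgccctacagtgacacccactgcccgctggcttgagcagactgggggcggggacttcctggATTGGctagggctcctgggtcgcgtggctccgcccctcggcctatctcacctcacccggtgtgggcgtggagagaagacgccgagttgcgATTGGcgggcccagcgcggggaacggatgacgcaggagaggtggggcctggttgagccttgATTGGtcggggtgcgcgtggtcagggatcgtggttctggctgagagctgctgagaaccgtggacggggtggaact
Idi1: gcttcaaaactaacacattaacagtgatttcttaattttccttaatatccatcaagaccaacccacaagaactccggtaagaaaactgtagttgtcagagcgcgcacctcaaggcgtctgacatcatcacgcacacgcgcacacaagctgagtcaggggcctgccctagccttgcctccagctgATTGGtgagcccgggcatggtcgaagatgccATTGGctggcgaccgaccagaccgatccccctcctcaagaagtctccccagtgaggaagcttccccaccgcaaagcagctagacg
Ebp: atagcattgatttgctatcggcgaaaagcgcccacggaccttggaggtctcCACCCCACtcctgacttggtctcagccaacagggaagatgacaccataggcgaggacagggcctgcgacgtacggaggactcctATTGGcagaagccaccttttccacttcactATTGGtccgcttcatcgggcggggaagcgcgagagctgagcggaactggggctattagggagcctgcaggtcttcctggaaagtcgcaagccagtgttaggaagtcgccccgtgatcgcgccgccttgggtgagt
Insig1: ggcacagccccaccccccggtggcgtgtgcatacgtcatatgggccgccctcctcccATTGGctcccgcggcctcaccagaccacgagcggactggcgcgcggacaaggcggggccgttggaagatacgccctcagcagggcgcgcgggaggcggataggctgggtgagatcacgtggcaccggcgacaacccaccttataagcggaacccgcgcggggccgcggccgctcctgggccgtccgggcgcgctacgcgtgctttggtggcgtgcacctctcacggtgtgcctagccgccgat
Srebf2: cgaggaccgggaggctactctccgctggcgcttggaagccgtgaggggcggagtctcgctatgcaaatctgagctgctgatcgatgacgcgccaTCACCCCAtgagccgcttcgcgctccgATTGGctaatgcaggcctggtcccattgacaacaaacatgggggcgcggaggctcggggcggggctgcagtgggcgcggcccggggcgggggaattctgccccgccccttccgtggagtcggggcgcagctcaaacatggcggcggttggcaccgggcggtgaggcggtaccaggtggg

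CCAAT was in 5 of these 5 promoters, against 37.7% of the 27457 promoters in the table and 38.4% of those of measured genes. The letters were also common in related lists, in 9 of 12 promoters of other cholesterol synthesis enzymes (75%) and 6 of 9 of fatty acid genes (66.7%). All 9 matches read ATTGG on the gene's own strand, an orientation that made up 51.1% of the matches in promoters of measured genes. Hsd17b7 had 3 of them, Idi1 and Ebp 2 each, and Insig1 and Srebf2 1 each. In Idi1 the matches began 31 bases apart and in Ebp 30. GGGCGG was in 4 of the 5, against 34.9% of all promoters and 50.2% of those of measured genes, and Idi1 was the one without it. Of the 12 promoters of other synthesis enzymes 11 held GGGCGG. Ebp held CACCCCAC, found in 2.57% of all promoters, and Srebf2 held TCACCCCA, found in 1.41%. TCACNCCAC, found in 1.13%, was in 0 of the 5. Among the 284 promoters of genes that fell in these arrays, 33.8% held CCAAT, below the share among all measured genes. The other letters were above their share among measured genes, GGGCGG with 58.5% against 50.2% and CACCCCAC, in 13 promoters, with 4.58% against 2.35%. TCACCCCA was in 5 promoters (1.76% against 1.28%) and TCACNCCAC in 4 (1.41% against 1.09%). The sterol element letters overlap, their counts are small, and none of these shares was tested. A match is a description of the letters and shows no binding.

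After Gld2 shRNA the measured cholesterol genes read lower than in the controls, by different amounts. The enzyme genes Hsd17b7, Idi1 and Ebp and the transfer protein gene Stard4 fell to between 63.4% and 77.6% of the control level. For Sqle, Insig1 and Srebf2 the means were 80.7%, 87.3% and 91.5% of the control level and did not pass the test. So 4 of 7 measured genes fell and 0 rose, at an adjusted p under 0.05 by limma with Benjamini-Hochberg adjustment over all genes. The background was 2.41% of all genes called lower and 1.69% called higher. The genes were chosen with earlier results of these arrays known, so the count describes them and is no independent evidence. In all 7, both knockdown cultures lay below both controls, as they did in 34.5% of all genes, while in 24% both lay above both controls. The median log2 difference of the 7 was -0.37, against -0.02 over all genes. Against the control mean it was -0.34 in Gld2 shRNA replicate 1 and -0.39 in replicate 2, with -0.02 and -0.01 over all genes.

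**Figure D1:**
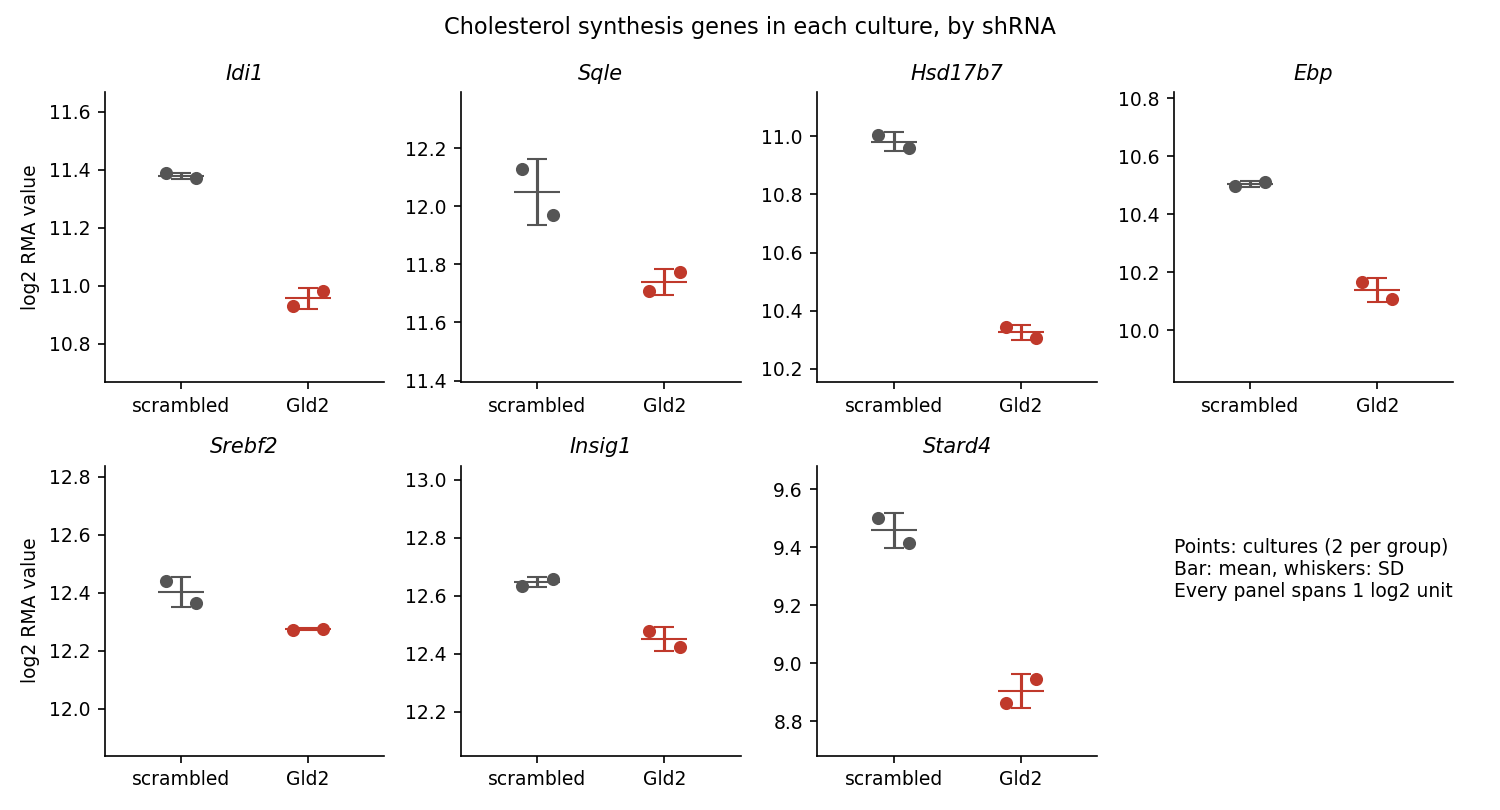
Log2 RMA values of the 7 measured genes in each culture (points), with the mean (bar) and SD (whiskers) of the 2 cultures per shRNA group; every panel spans 1 log2 unit. Both Gld2 shRNA points lie below both scrambled shRNA points in every panel, with the widest gap for Hsd17b7 and the narrowest for Srebf2.

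The knockdown itself was visible in the targeted transcript. Tent2 read 9.50 and 9.35 after Gld2 shRNA and 10.73 and 10.67 in the controls, so that it was at 41.1% of the control level. The arrays had median log2 values of 8.41 to 8.48. Gld2 shRNA replicate 2 had the highest of these medians. Over all genes 349 were called lower and 245 higher. With each array centred on its median the split was 1367 lower and 558 higher.

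Idi1 encodes isopentenyl diphosphate isomerase, which converts one isoprenoid building unit into the other. Idi1 (probe set 10799241) had log2 RMA values of 10.93 and 10.98 with Gld2 shRNA and of 11.39 and 11.37 with scrambled shRNA. The 2 knockdown cultures were close together and well apart from the controls. Group means were 10.96 ± 0.0355 (SD, n = 2) against 11.38 ± 0.0114 (SD, n = 2). The log2 difference was -0.42, with a standard error of 0.0606, a 95% confidence interval from -0.57 to -0.27 and an adjusted p of 0.0259 by limma. Of the 14497 genes, 261 had a lower difference.

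Sqle encodes squalene epoxidase, which adds oxygen to squalene and is a rate-limiting step of the later pathway. Sqle (probe set 10896772) read 11.71 and 11.77 with Gld2 shRNA and 12.13 and 11.97 in the controls. Its control cultures were farther apart (SD 0.113, n = 2) than those of any other gene of the set. This gave a log2 difference of -0.31, with an interval from -0.50 to -0.12, and it did not pass (adjusted p = 0.0846, limma). Without scrambled shRNA replicate 1, the higher control, the difference was -0.23, and without scrambled shRNA replicate 2 it was -0.39.

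Hsd17b7 encodes a keto reductase that completes the removal of methyl groups from the sterol ring. It had the largest difference of the set. Hsd17b7 (probe set 10769680) read 10.34 and 10.31 with Gld2 shRNA and 11.00 and 10.96 in the controls. The lower control lay 0.616 above the higher knockdown culture, while cultures of one group were within 0.05 of each other. Hsd17b7 thus had a log2 difference of -0.66 (standard error 0.0611), an interval from -0.81 to -0.51 and an adjusted p of 0.00547 by limma. Only 39 of 14497 genes had a lower value.

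Ebp encodes the sterol isomerase that shifts a double bond within the ring system, the step after the action of Hsd17b7. Ebp (probe set 10932410) read 10.17 and 10.11 with Gld2 shRNA and 10.50 and 10.51 in the controls. The controls were nearly identical and both knockdown cultures were below them. The log2 difference was -0.37, with a standard error of 0.0612, an interval from -0.52 to -0.22 and an adjusted p of 0.0378 by limma. The confidence interval of Hsd17b7 overlapped that of Ebp by little, and the difference between these genes was not tested.

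Stard4 encodes a soluble protein that carries cholesterol between membranes, and its gene is a known SREBP2 target. Stard4 (probe set 10803681) read 8.86 and 8.95 with Gld2 shRNA and 9.50 and 9.42 in the controls. Both knockdown cultures were lower by more than the distance between cultures of a group. Stard4 had a log2 difference of -0.55 (standard error 0.0680), an interval from -0.72 to -0.39 and an adjusted p of 0.0153 by limma. In the list of all genes 92 had a lower value.

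The regulator genes of the set did not pass with the probe sets used. Srebf2 (probe set 10898091) read 12.27 and 12.28 with Gld2 shRNA and 12.44 and 12.37 in the controls. This is a log2 difference of -0.13, with an interval from -0.28 to 0.03 that includes 0 (adjusted p = 0.257, limma). Insig1, itself a sensitive target of SREBP2 as well as its brake, had 2 probe sets. The one with the higher mean (10859880) read 12.48 and 12.42 against 12.63 and 12.66, a log2 difference of -0.20 with an interval from -0.35 to -0.04 (adjusted p = 0.129, limma). The other (10861986) read 11.79 and 11.77 against 12.11 and 12.16, a log2 difference of -0.36. Put in the place of the first, it had an adjusted p of 0.0387 by limma. The call for Insig1 therefore depends on the probe set, while both had the same sign.

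The calls changed with the arrays in the fit and with the estimate of the spread. Leaving out a scrambled shRNA culture leaves only the Gld2 shRNA cultures to give the spread, and in those fits 0 of the 7 genes passed. In the fits that omit scrambled shRNA replicate 1 and replicate 2 the adjusted p by limma was 0.111 and 0.0895 for Hsd17b7, 0.204 and 0.135 for Stard4, 0.280 and 0.224 for Idi1, and 0.310 and 0.281 for Ebp. Without Gld2 shRNA replicate 2 only Ebp of these 4 lost its call (0.0923). With a level-dependent prior variance, 7 of 7 genes passed, while 1611 of 14497 genes were called lower, against 349 as reported. With all 28826 probe sets in the adjustment, 116 were called lower, and Hsd17b7 alone of the 7 passed (adjusted p = 0.0255, limma). No difference could change sign in these settings. The prior and the adjustment leave the differences as they are. In all 7 genes both knockdown cultures lay below both controls, so leaving out 1 culture cannot turn a sign.

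**Figure D2:**
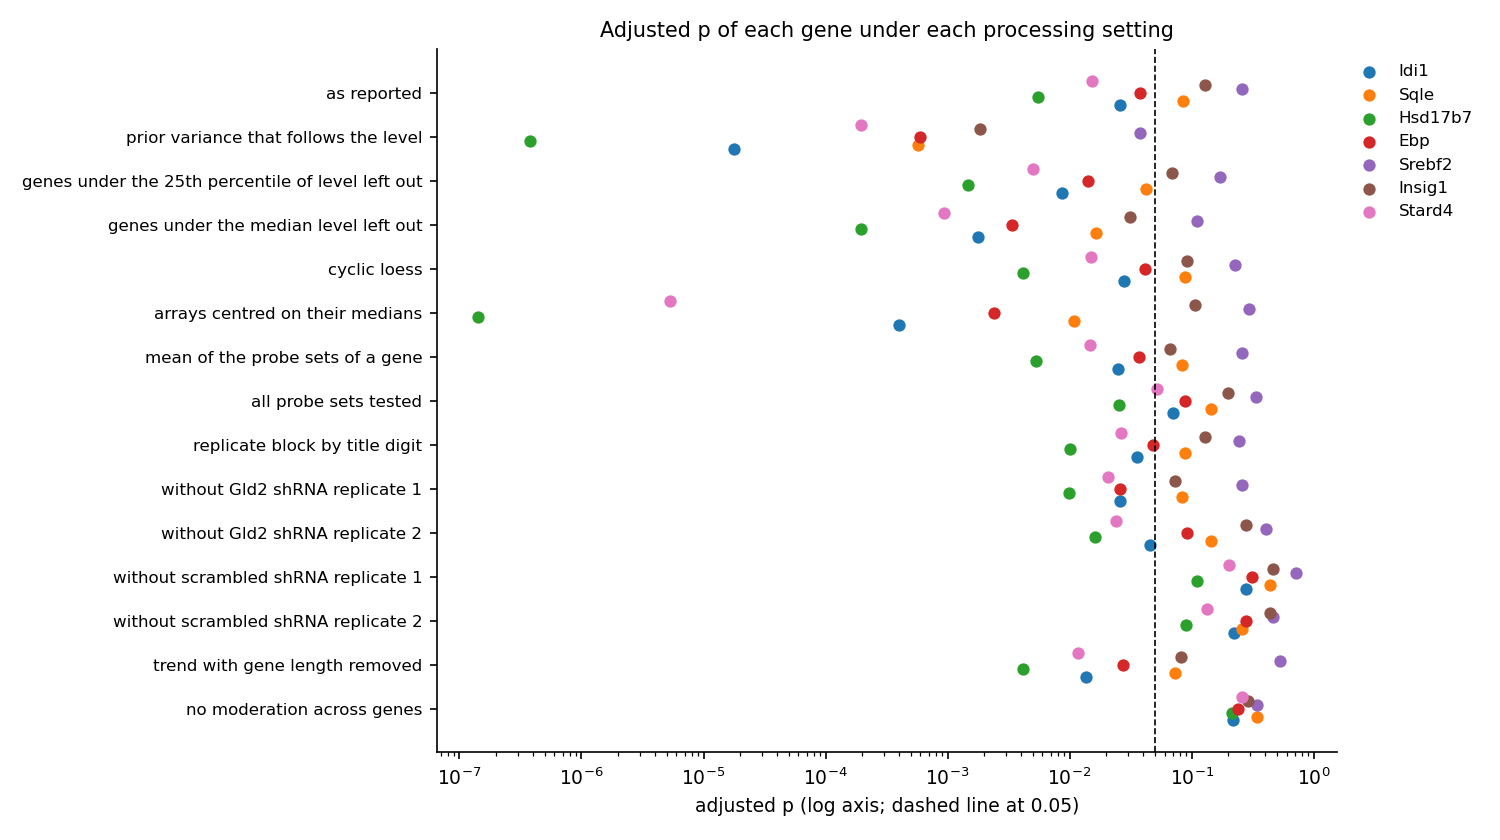
Adjusted p by limma (log axis) of the 7 genes under each processing setting, with the threshold of 0.05 as a dashed line. Hsd17b7 reads 0.00547 as reported, and the points of all 7 genes lie right of the line without scrambled shRNA replicate 1 or 2 and without moderation across genes.

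The remaining enzymes of the pathway lay on the same side with smaller differences. In all, 14 further enzymes were measured. By limma 0 passed in either direction, and 9 were lower and 0 higher at an unadjusted p under 0.05, against 16.2% and 9.24% of all genes. All 14 differences were below 0, as were those of 53.8% of all genes. The 14 ran from -0.27 to -0.05, with a median of -0.17. Sc5d, a desaturase of the final steps (-0.27, adjusted p = 0.0720), Lss, which closes the sterol rings (-0.26, adjusted p = 0.0786), Mvd (-0.24, adjusted p = 0.0948) and Mvk (-0.21, adjusted p = 0.141), both of the mevalonate steps, had the smallest p by limma. In 13 of the 14 both knockdown cultures were below both controls, as they were in 34.5% of all genes. Fdps, which makes farnesyl diphosphate, was the exception, with a log2 difference of -0.05. Of all 18 measured enzymes the 3 that passed were Idi1, of the early isoprenoid steps, and Hsd17b7 and Ebp, of the late sterol steps.

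**Figure D3:**
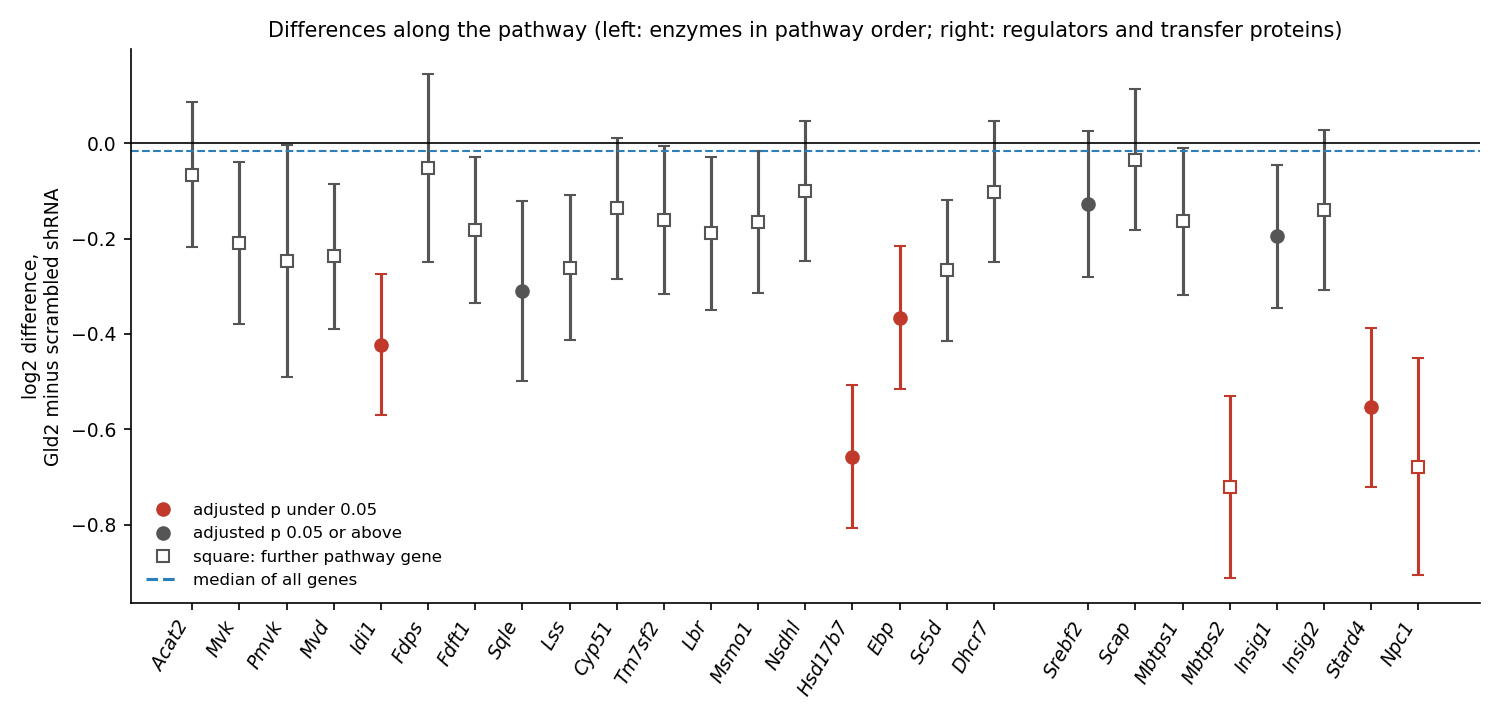
Log2 differences (Gld2 minus scrambled shRNA) with 95% confidence intervals for enzymes in pathway order (left) and for regulators and transfer proteins (right); circles are the chosen genes, squares further pathway genes, red an adjusted p under 0.05, and the dashed line is the median of all genes. All 18 enzymes lie below 0, as do 53.8% of all genes, and Mbtps2, Npc1, Hsd17b7 and Stard4 lie lowest.

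Mbtps2 and Npc1 fell too, with differences as large as that of Hsd17b7. Mbtps2 encodes the site-2 protease, which makes the final cut that frees active SREBP2 in the Golgi. It read 10.31 and 10.13 with Gld2 shRNA and 10.94 and 10.93 in the controls, a log2 difference of -0.72 with an interval from -0.91 to -0.53 (adjusted p = 0.00965, limma). The knockdown cultures were farther apart than the controls, and replicate 2 was the lower. Without scrambled shRNA replicate 1 or 2 the adjusted p was 0.140 and 0.125 by limma. It was the 1 of 8 measured regulators that fell, with 0 rising, against 2.41% and 1.69% of all genes. At an unadjusted p under 0.05 by limma, 2 were lower and 0 higher, against 16.2% and 9.24% of all genes. All 8 differences were below 0, as were those of 53.8% of all genes, with a list median of -0.14. In 7 of the 8 both knockdown cultures were below both controls, as they were in 34.5% of all genes. Mbtps1, the protease of the first cut, was at -0.16, Insig2 at -0.14 and Scap at -0.03, and none of these passed. Erlin2 (-0.14, adjusted p = 0.211) and Rnf145 (-0.14, adjusted p = 0.339) also did not pass, by limma.

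Npc1 encodes the lysosomal membrane protein that releases cholesterol taken up from outside. It read 9.93 and 9.76 with Gld2 shRNA and 10.62 and 10.44 in the controls. The groups did not overlap, although cultures within each group differed by more than those of most other genes named here. Npc1 had a log2 difference of -0.68 with an interval from -0.91 to -0.45 (adjusted p = 0.0221, limma). Without scrambled shRNA replicate 1 or 2 the adjusted p was 0.205 and 0.106, and without Gld2 shRNA replicate 2 it was 0.0533, all by limma. It was the 1 of 11 measured genes of uptake, transfer and storage that fell, with 0 rising, against 2.41% and 1.69% of all genes. At an unadjusted p under 0.05 by limma, 3 were lower and 0 higher, against 16.2% and 9.24% of all genes. The list had 7 values below and 4 above 0 and a median of -0.08. Npc2, its partner in the lysosome, was at 0.11, the sterol-regulated Tmem97 at -0.29 and the oxysterol-binding protein gene Osbp at -0.22, and none of these passed. Soat2, which forms cholesterol esters, was at 0.14 and did not pass.

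Genes for the removal of cholesterol had values on both sides of 0, with 5 below and 6 above. Of 11 measured genes of the liver X receptors, efflux and oxidation, 0 passed by limma. At an unadjusted p under 0.05, 1 was lower and 0 higher, against 16.2% and 9.24% of all genes. The list median was 0.03. Abca1 and Abcg1, which export cholesterol, were at -0.02 and 0.13, and Cyp46a1, the neuronal enzyme that converts cholesterol for export from the brain, at 0.05. Ch25h, an interferon-inducible enzyme whose oxysterol product holds SREBP2 inactive, was at 0.12 with an interval from -0.10 to 0.34. Cyp7b1 had the smallest p of the list (-0.27, adjusted p = 0.110, limma), followed by Abcg1, Apoe (0.09) and Ch25h. Of 9 genes of the isoprenoid branch 0 passed by limma. At an unadjusted p under 0.05, 2 were lower and 0 higher, against the same 16.2% and 9.24% of all genes. The list median was -0.12, and Pggt1b (-0.22), Pdss2 (-0.16), Ggps1 (-0.22) and Rabggtb (-0.14) had the smallest p.

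Fatty acid synthesis, which SREBP proteins also control, had 12 measured genes. By limma 1 was called lower and 0 higher, against 2.41% and 1.69% of all genes. At an unadjusted p under 0.05, 6 were lower and 0 higher, against 16.2% and 9.24% of all genes. The list had 10 of 12 values below 0, against 53.8% of all genes, and a median of -0.14. Scd, a fatty acid desaturase, fell to 54.2% of the control level (log2 difference -0.88, adjusted p = 0.00216, limma), lost its call without scrambled shRNA replicate 1 (0.0519) and kept it without replicate 2 (0.0388), while Acaca (-0.38), Fasn (-0.22) and Acss2 (-0.22) did not pass.

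**Figure D4:**
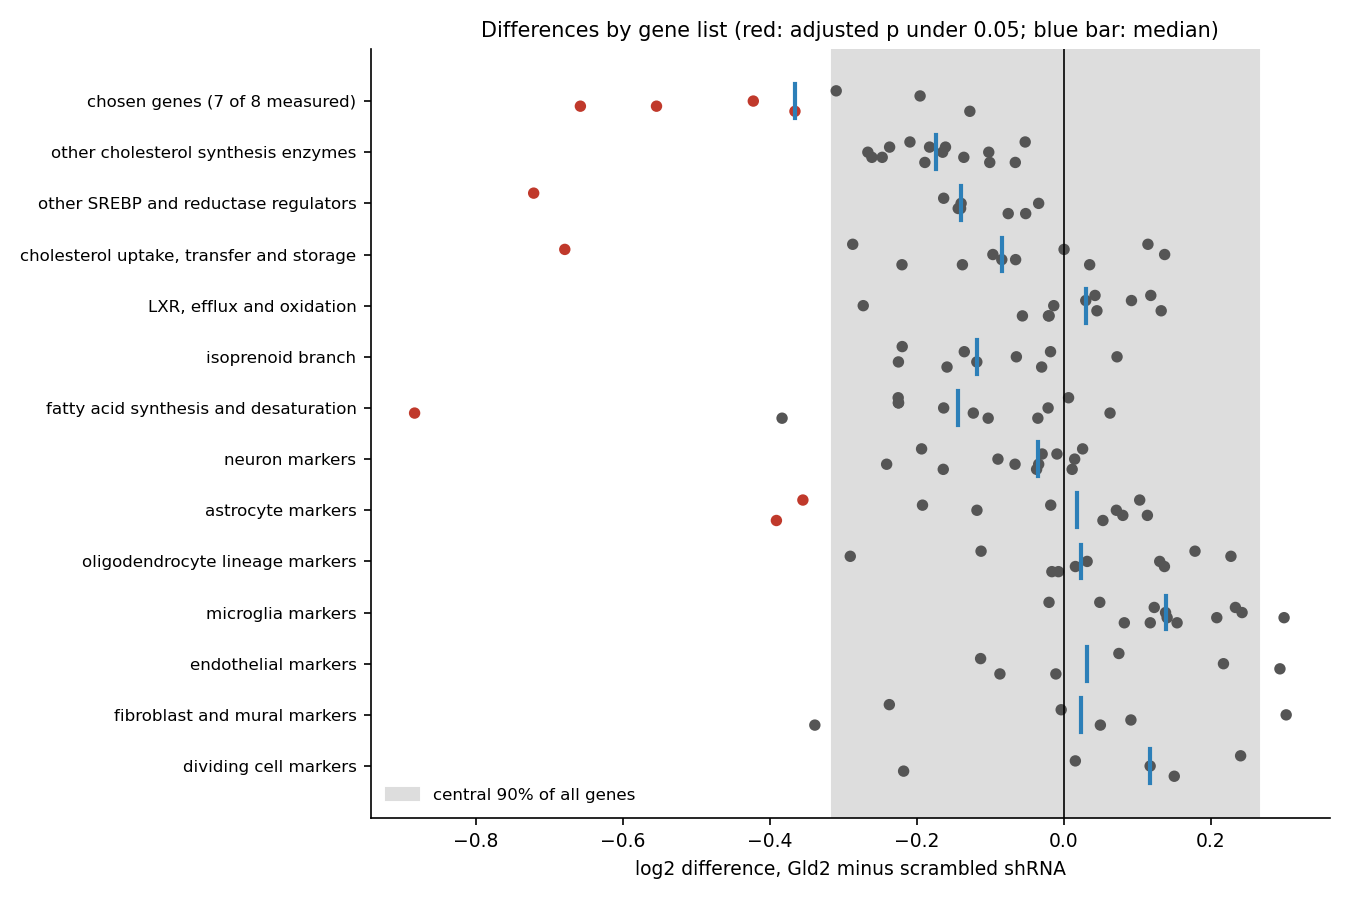
Log2 differences (Gld2 minus scrambled shRNA) of every measured gene of each list, red where the adjusted p was under 0.05, with the list median as a blue bar and the central 90% of all genes shaded. The chosen genes have a median of -0.37 and the other synthesis enzymes -0.17, while the efflux list and the marker lists other than neurons have medians above 0.

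Markers of the cell types that make cholesterol were examined alongside. Over all genes, 2.41% were called lower and 1.69% higher at an adjusted p under 0.05 by limma. At an unadjusted p under 0.05 by limma, 16.2% were lower and 9.24% higher. Of 10 measured astrocyte markers, 2 fell, the gap junction gene Gja1 (-0.39, adjusted p = 0.0351) and the bicarbonate transporter gene Slc4a4 (-0.35, adjusted p = 0.0408), by limma, and 0 rose. Both lost the call without Gld2 shRNA replicate 2 (0.0851 and 0.101), without scrambled shRNA replicate 1 (0.286 and 0.326) and without scrambled shRNA replicate 2 (0.280 for each), by limma. With all probe sets tested both lost it as well (0.0844 and 0.0918). With the gene length trend removed Slc4a4 moved to -0.19 and lost its call (adjusted p = 0.110, limma), while Gja1 kept it (0.0278). Gfap was at 0.10 and Aldh1l1 at 0.05 and did not pass. The astrocyte list had 5 values below and 5 above 0 and a median of 0.02. At an unadjusted p under 0.05 by limma, 3 of its genes were lower and 0 higher. The summed astrocyte level, as log2 of the summed linear values, was 15.49 to 15.54 with Gld2 shRNA and 15.52 to 15.54 in the controls, so the groups overlapped. Of 10 oligodendrocyte lineage markers 0 passed by limma, with 1 lower at an unadjusted p under 0.05, and 0 higher. Their median was 0.02, with 4 below and 6 above 0, from Mbp at -0.29 to Sox10 at 0.23. Their summed level was 12.84 to 12.88 against 12.83 to 12.85. Of 12 neuron markers 0 passed by limma. At an unadjusted p under 0.05 by limma, 3 were lower, Gad2 (-0.24), Nefm (-0.19) and Syt1 (-0.16), and 0 higher. The neuron list had 9 values below and 3 above 0 and a median of -0.04, and Rbfox3 was at -0.04. The summed neuron level was 16.21 to 16.22 against 16.26 to 16.27, lower in both knockdown cultures. Of 12 microglia markers 0 passed by limma, with 3 higher at an unadjusted p under 0.05. Their median was 0.14, with 1 below and 11 above 0. All genes in the level deciles of these markers had medians from -0.06 to 0.10. Aif1 was at 0.08 and Cx3cr1 at 0.30, and the summed level was 11.55 to 11.67 against 11.45 to 11.48. Endothelial, fibroblast and mural, and dividing cell markers had 0 genes past the threshold by limma and medians of 0.03, 0.02 and 0.12. At an unadjusted p under 0.05 the endothelial list had 2 higher and 0 lower, the fibroblast and mural list 1 of each, and the dividing cell list 1 lower. The part of these cells in the cholesterol result was not tested, and fewer cells of a type and less RNA per cell cannot be told apart in bulk RNA. RMA values carry no detection call, so absence of a marker could not be read.

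Differences on these arrays also varied with level and gene length. Genes in the same level decile as the 7 genes had medians of -0.10 for Stard4, -0.08 for Hsd17b7 and Ebp, -0.05 for Idi1 and 0.01 for Sqle, Srebf2 and Insig1. Genes of the same length decile had medians from -0.06 to 0.03. With the trend with gene length removed, the 4 genes that fell still passed, and Srebf2 was at -0.06. By distance of the centred values over the 4 arrays, the genes outside the lists most like the average of the 7 were Clint1 (distance 0.0116), Clcn5 (0.0143), Ipp (0.0178), Pik3c2b (0.0268) and Gpr83 (0.0295). With 4 arrays this likeness reflects mainly a group difference of similar size.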

How the data were processed

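Poly(A) RNA of 4 cultures was measured on whole-transcript Affymetrix arrays, per the labels' protocols. The authors deposited log2 values made with RMA and affy, per the submitters' processing notes. In RMA, background is corrected, arrays are normalized together and probes are summarised. Its settings, versions, probe set definition and build were not given in the sources used here. Without scan dates or detection calls, neither batches nor signal over background could be examined, and 4 arrays limit the precision.

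Of 28826 probe sets, 15209 had 1 gene symbol, 306 several and 13311 none, which gave 14497 genes. For 494 genes with several probe sets the one with the highest mean was used. The groups were compared with lmFit and eBayes of limma 3.58.1 (R 4.3.3) in a two-sided test, adjusted by Benjamini-Hochberg over all genes, a threshold of 0.05 and 2 residual degrees of freedom plus 3.96 from moderation. The test was tried on simulated data. Differences are Gld2 shRNA minus scrambled shRNA.

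The genes and lists were chosen with earlier results of these data known, so no set test was run and no p was adjusted over a list. All members are named. Of each further list, the genes past the threshold and those with the smallest p were named, with a few fixed regulators, markers and the 5 genes nearest in pattern. The promoters and gene lengths came from RefSeq assembly GRCr8. The alternatives were other variance priors, filters, normalizations, probe set rules, thresholds, a replicate block, a gene length correction and the removal of each culture. The same settings were run for Tent2, Mbtps2, Npc1, Scd, Gja1 and Slc4a4 after the data were seen.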

Additional observations from a re-analysis of the deposited data

How the results depend on the processing

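The 7 genes kept a difference below 0 under every alternative run, but only some of these could have changed a sign. Variance priors, level filters, thresholds, the replicate block and the adjustment over all probe sets leave a difference as it is. Leaving out 1 culture could not turn a sign, as the groups did not overlap. Centred arrays, cyclic loess, the gene length trend and, for Insig1, the mean of its probe sets did move the differences. The number of them called lower was 4 as reported. It was 1 with all probe sets tested, 7 with a level-dependent prior variance, 5 with centred arrays, 5 and 6 with genes under the 25th percentile or the median level left out, and 0 without moderation across genes (1 gene of 14497 called higher and 0 lower there by limma), and ran from 0 to 4 without 1 culture. Their median was -0.39 with arrays centred on their medians, -0.29 with cyclic loess and -0.43 with the gene length trend removed, and ran from -0.39 to -0.34 without 1 culture. The other synthesis enzymes called lower, 0 as reported, numbered 3 at an adjusted p under 0.10, 3 with centred arrays, 3 and 5 with genes under the 25th percentile or the median level left out, 7 with the level-dependent prior, 1 with the length trend removed, 9 at an unadjusted p under 0.05 and 0 to 1 without 1 culture.

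Over all genes, 349 were called lower. This became 1017 at an adjusted p under 0.10, 116 with all probe sets tested, 1367 with centred arrays, 949 and 1287 with the 2 level filters, 1611 with the level-dependent prior, 2348 at an unadjusted p under 0.05, and 3 to 1406 without 1 culture. The 245 called higher became 467 at an adjusted p under 0.10, 558 with centred arrays, 621 with the level-dependent prior, 1339 at an unadjusted p under 0.05 and 82 to 1283 without 1 culture. The cause was not tested. The fits without a scrambled shRNA culture take their spread from the Gld2 shRNA cultures alone.

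With the last digit in each sample title used as a replicate block, 4 of the 7 genes were called lower, with 332 lower and 233 higher over all genes. Deviations of same-numbered cultures correlated at 0.143 over genes, and nothing in the labels says that the digit marks a shared batch. The level-dependent prior brought Sqle (adjusted p = 0.000570), Insig1 (0.00185) and Srebf2 (0.0380) past the threshold, by limma. Sqle also passed with centred arrays (0.0108) and with the 2 level filters (0.0421 and 0.0163), and Insig1 with the median filter (0.0313). With 2 cultures per group small differences are poorly resolved.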
